A study of Mus musculus with 7 samples.

Results

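Integrins are cell surface receptors made of an alpha and a beta subunit. The 10 genes described here encode some of the subunits of receptors for collagens, fibronectin, vitronectin and laminins. They were chosen by name from the 20134 protein-coding genes that had a position in both genome builds of the deposited files. The collagen-binding alpha subunits are Itga1, Itga2, Itga10 and Itga11, the fibronectin and vitronectin receptor subunits are Itga5, Itgav, Itgb3 and Itgb5, Itga6 is a laminin receptor subunit, and Itgb1 is the beta subunit that pairs with all 4 collagen-binding alpha subunits and with Itga5. Each gene was examined at its promoter, taken as the 1 kb on each side of the transcription start site (TSS), in its body, and in the 50 kb on each side of the body.

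The data were lists of ChIP-Seq peaks, that is, stretches of chromatin enriched for a histone mark in a precipitated library. Primary chondrocytes from rib cartilage gave 2 lists of H3K27ac, named replicate 1 and replicate 2, and 1 list of H3K4me2, and primary dermal fibroblasts from skin, the study's negative control, gave 1 list of H3K27ac. Chondrocytes labelled WT and chondrocytes of genotype E160(delta/delta);E308(delta/delta), written E160Δ/Δ E308Δ/Δ below, gave 1 H3K27ac list each. The study's methods give newborn mice as the source of the cells, dorsal skin for the fibroblasts, and use within 2 passages for the chondrocytes. E160Δ/Δ E308Δ/Δ mice lack both copies of 2 enhancers that lie upstream of Sox9, the gene of the transcription factor that directs cartilage formation, and their list is called the deletion list here. The labels give no age, strain or genotype for the other libraries, and an input library of the series was not analysed here.

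Integrins tie the cytoskeleton to the extracellular matrix, and a cell's set of alpha subunits decides which matrix proteins it can hold. Cartilage cells sit in a matrix built on collagen II, for which the subunit made from Itga10 is the receptor best known in cartilage, while Itga11 is known for collagen I in mesenchymal tissues and fibroblasts. H3K27ac marks active promoters and enhancers, and H3K4me2 marks promoters and enhancers in a wider range of states.

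The number of peaks ran from 19454 for the fibroblast list and 20450 for replicate 2 over 25213 for the deletion list, 25580 for replicate 1 and 33369 for WT to 66355 for H3K4me2. Positions were on mm9 except in replicate 2, which was on GRCm38. Peaks were found at 8 to 12 of 14 chondrocyte marker promoters in the 5 chondrocyte lists and at 1 of 14 in fibroblasts. The marker promoter marked in fibroblasts was that of Sox9, which had no peak in replicate 1. The dermal fibroblast markers separated the cells less. Peaks were found at 5 of 10 of their promoters in fibroblasts and at 5 to 9 of 10 in the chondrocyte lists. Col1a1, Col1a2, Col3a1 and Twist1 were marked in both chondrocyte replicates and not in fibroblasts. Pdgfra, Dpt and Tbx18 were marked in fibroblasts and in neither replicate. The study itself reports high Col1a1 expression and peaks at Col1a1 in its fibroblasts. None of 6 haematopoietic promoters was marked in any list, and of 16 endothelial, skeletal muscle and keratinocyte promoters only Tek, in fibroblasts, was marked by H3K27ac. Each enhancer is named after its distance upstream of Sox9 in kb. Within 5 kb of these positions the WT list had 1 peak at E160 and 2 at E308, and the deletion list had 0 at either. The fibroblast list had 1 peak at each, in the top 46.3% at E160 and the top 66.7% at E308. Only chondrocyte H3K27ac had more than 1 library, so differences between cell types or genotypes were not tested, and a list with fewer peaks can miss a weak mark. In such bulk cells, a mark on fewer cells and a weaker mark on all of them cannot be told apart.

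Promoters were counted at the 5′ end that each build gives. Itga10 was then the only one of the 10 integrin genes marked there by H3K27ac in both chondrocyte replicates and not in fibroblasts. Read at other annotated starts 41.3 kb after its mm9 5′ end, Itga6 had the same pattern, as described below. Over all genes 338 of 20134 promoters, or 1.68%, had this pattern, and 269 of 20134, or 1.34%, were marked in all 5 chondrocyte lists and not in fibroblasts, as Itga10 was. With the higher-scoring 50% of each list, 0 integrin promoters had it, since the Itga10 peak of replicate 2 fell in the lower part of its list. Counted at the 5′ end that each build gives, 0 integrin promoters were marked in fibroblasts and in neither replicate, against 3.83% of all promoters, but at its mm9 5′ end Itga6 had a fibroblast peak and no peak in either replicate, and its replicate 2 call came from a RefSeq start 41.3 kb further on. With 10 genes, 1 such promoter carries no weight for integrins as a family, and what follows describes single genes.

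Sequence upstream of the start is shown for the 4 collagen-binding genes, which share ligands and the beta subunit and differed in their marks, and for Itgb1, whose promoter ranked highest of the 10 in each H3K27ac list. Each run is the 200 bases before the TSS in RefSeq on GRCm38, read 5′ to 3′ along the gene, and capitals mark CG dinucleotides, which are dense in promoters active in many cell types. The 5 runs are, in order, on chr3:96645384-96645583 (+), chr13:115101965-115102164 (−), chr13:114932101-114932300 (−), chr9:62677655-62677854 (+) and chr8:128685454-128685653 (+).
Itga10: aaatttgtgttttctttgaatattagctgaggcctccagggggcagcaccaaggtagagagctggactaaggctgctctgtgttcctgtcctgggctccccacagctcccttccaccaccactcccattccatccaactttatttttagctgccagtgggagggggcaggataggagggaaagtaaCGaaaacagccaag
Itga1: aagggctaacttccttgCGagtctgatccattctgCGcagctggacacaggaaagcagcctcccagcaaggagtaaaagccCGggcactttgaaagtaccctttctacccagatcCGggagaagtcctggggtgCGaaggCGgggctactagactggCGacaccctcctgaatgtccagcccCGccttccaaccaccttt
Itga2: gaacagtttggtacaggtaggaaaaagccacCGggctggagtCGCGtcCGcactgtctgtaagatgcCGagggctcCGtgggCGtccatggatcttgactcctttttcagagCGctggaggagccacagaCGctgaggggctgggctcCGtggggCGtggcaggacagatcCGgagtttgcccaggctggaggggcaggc
Itga11: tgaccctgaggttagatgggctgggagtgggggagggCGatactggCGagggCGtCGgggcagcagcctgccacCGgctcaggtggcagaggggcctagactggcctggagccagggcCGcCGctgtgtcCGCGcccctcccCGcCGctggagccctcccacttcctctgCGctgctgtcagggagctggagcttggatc
Itgb1: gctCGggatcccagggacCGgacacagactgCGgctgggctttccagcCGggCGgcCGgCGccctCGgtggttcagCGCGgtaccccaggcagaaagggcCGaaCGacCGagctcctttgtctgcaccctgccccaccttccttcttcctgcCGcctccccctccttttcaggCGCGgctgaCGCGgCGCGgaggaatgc

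Itga10 held 1 CG dinucleotide in this window, and 23.3% of the 32851 RefSeq promoters held no more. The other members with a sequence held more than the median of 5.0 over all promoters: Itga1 and Itga5 held 8, Itga2 and Itga11 held 12, Itgb5 held 16, Itgav held 17 and Itgb1 held 20. RefSeq promoters were matched for 8 of the 10 genes and not for Itga6 or Itgb3. The letters ACAAAG, the core recognised by SOX proteins, were searched on both strands and were absent from the windows of the 4 collagen-binding genes and present in that of Itgb1, against 13.3% of all promoters of the same length. A match or its absence describes these letters in this window alone.

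The promoter of Itga10 (ENSMUSG00000090210.1, mm9 chr3:96449507-96468442, + strand), the collagen-binding alpha subunit of cartilage, was marked in all 5 chondrocyte lists. Its H3K27ac peak was 995 bp wide in replicate 1 and ranked in the top 34.1% of that list by score, where the top 1% are the highest-scoring peaks. It was 475 bp wide in replicate 2, with a fold enrichment over local background of 4.28 and a rank in the top 64.3%. The peak therefore ranked in the upper part of one replicate and below the middle of the other.

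In WT the Itga10 promoter peak was 704 bp wide with a fold enrichment of 6.33 (top 58.0%), and in the deletion list it was 387 bp wide with a fold enrichment of 4.69 (top 81.0%). Its H3K4me2 peak was far stronger in its list, at 2115 bp and in the top 4.61%. The fibroblast list had no peak at the promoter and none in the body.

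A further peak of Itga10 lay at the 3′ end of the gene, over exons and the 3′ UTR, again in all 5 chondrocyte lists and not in fibroblasts. In WT it ran from 16.77 to 19.01 kb after the TSS, with a fold enrichment of 10.4 and a rank in the top 32.6%, above that of the promoter itself. In replicate 1 and in the deletion list it was divided into 2 peaks, of which the stronger ranked in the top 33.7% and the top 49.2%. Replicate 2 held a single peak there of 480 bp in the top 83.0%.

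Around Itga10, marks were also found at neighbouring genes. Peaks at the promoters of Lix1l, Rbm8a and Pias3, all within 52.41 kb of its TSS, were found in replicate 1, replicate 2, WT, the deletion list and fibroblasts alike. In fibroblasts the Pias3 peak ranked in the top 1.59% and the Rbm8a peak in the top 31.8%. The fibroblast list was thus unmarked over Itga10 and marked at these genes on both sides of it. WT also had 2 peaks at the promoter of Ankrd34a, about 48 kb upstream, that the fibroblast list, both replicates and H3K4me2 lacked.

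**Figure D1:**
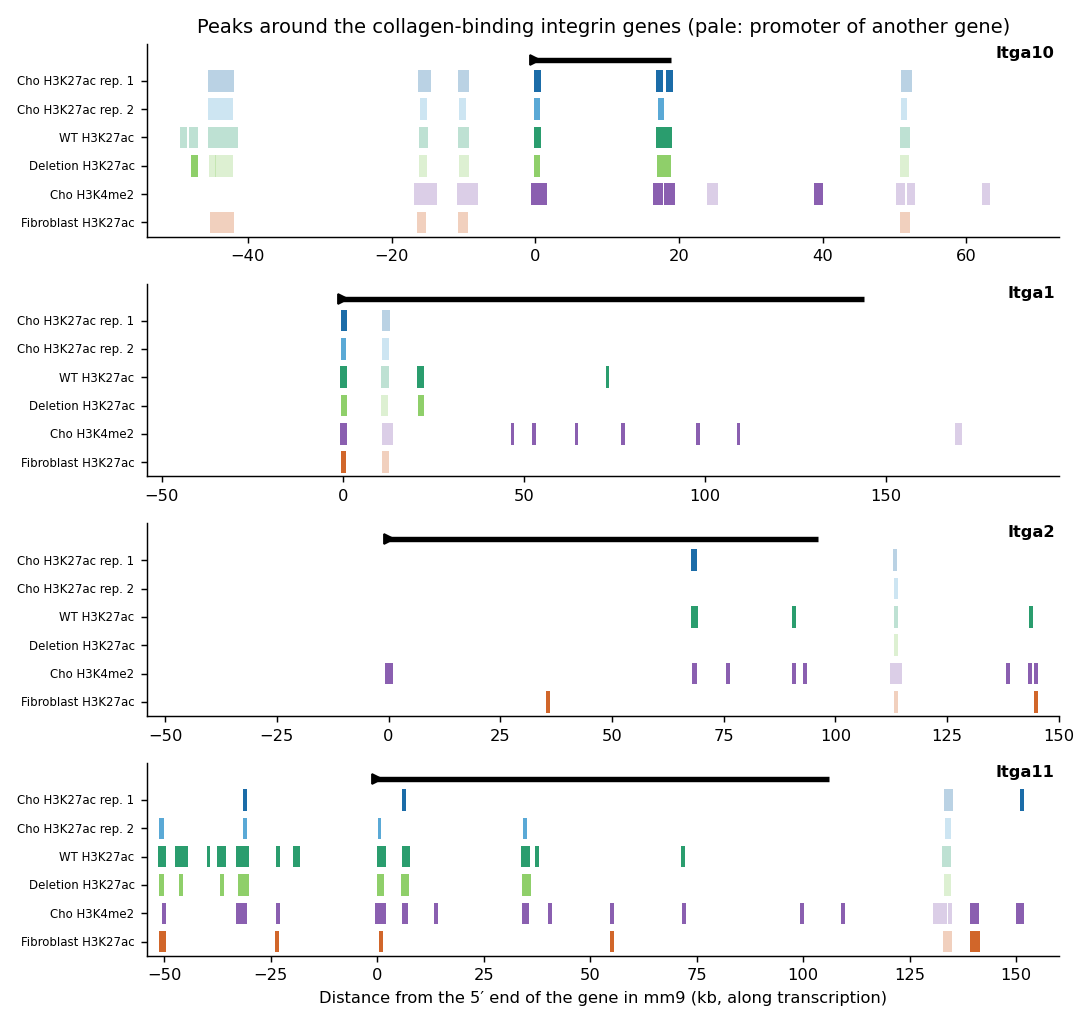
Peaks of the 4 collagen-binding integrin genes and 50 kb on each side, by distance from the 5′ end of the gene in mm9 (kb); each row is a peak list, black bars are gene bodies, pale boxes are peaks at promoters of other genes, and the narrowest peaks are widened to be visible. The fibroblast row is empty over the body of Itga10. The WT row of Itga11 holds 18 peaks against 6 in the fibroblast row, from lists of 33369 and 19454 peaks.

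Of all genes, 160 of 20134, or 0.795%, shared the 6 promoter calls and the 6 gene body calls of Itga10. The 5 nearest to it in covered share of the body, by the summed absolute difference over the 6 lists, were Ctf1 at 6.64 percentage points, Mpg at 7.64, Cenpt at 13.8, Adhfe1 at 14.3 and Nuak2 at 15.0. These lists share 5 chondrocyte libraries, and likeness in them is a description.

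Itga1 (ENSMUSG00000042284.8, mm9 chr13:115748287-115892172, − strand), a collagen receptor of many mesenchymal cells, was marked at its promoter in all 6 lists. The replicates placed its H3K27ac peak in the top 25% and 26.3%, WT in the top 20.9%, the deletion list in the top 24% and fibroblasts in the top 33.8%. Its H3K4me2 peak stood in the top 0.918%, the highest rank among the 10 promoters in that list. The promoter of Itga1 was thus marked in both cell types. As a share of each list its H3K27ac rank was lowest in fibroblasts, and the lists differ in length.

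Inside Itga1, a peak in an intron 10.50 to 12.79 kb after the TSS in WT was found in all 6 lists and covered the start of Pelo, a gene lying within Itga1. Beyond it, the H3K27ac peaks of the Itga1 body were in WT and the deletion list alone, at 20.67 to 22.27 kb in WT, and in WT alone at 73.00 kb. H3K4me2 marked 6 further sites between 46.49 and 109.43 kb, none of which had an H3K27ac peak in any list.

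Itga2 (ENSMUSG00000015533.8, mm9 chr13:115626124-115722249, − strand), the collagen receptor best known on platelets and epithelia, had no H3K27ac peak at its promoter in any of the 5 H3K27ac lists. Its promoter carried an H3K4me2 peak of 1717 bp in the top 1.88%. Of the 10 genes, Itga2 and Itgb3 had this pattern of H3K4me2 alone, which 14.2% of all promoters showed. In the body of Itga2, replicate 1 and WT had weak peaks at about 68 kb (top 50.8% in replicate 1, top 83.3% and 99% in WT), WT had a further one at 90.58 kb, and the fibroblast list had a different one at 35.52 kb in the top 98.5%. Replicate 2 and the deletion list had none in the body. Itga1 and Itga2 are neighbours, so their flanks overlap.

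Itga11 (ENSMUSG00000032243.8, mm9 chr9:62525633-62631789, + strand) differed from Itga10 in being marked at its promoter in fibroblasts too. The promoter had no peak in replicate 1. Its peak was 280 bp wide in replicate 2 (top 77.9%) and 927 bp in fibroblasts (top 69.7%). The peak of WT spanned 2153 bp (top 30.4%) and that of the deletion list 1602 bp (top 39.1%). The chondrocyte replicates thus disagreed, and the fibroblast peak ranked between that of replicate 2 and that of WT. The H3K4me2 peak was 2524 bp wide and in the top 5.73%.

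A site 31 kb upstream of Itga11, outside any promoter, was marked in all 5 chondrocyte lists and not in fibroblasts, and was the highest-ranked peak of the region away from promoters in WT, replicate 1 and the deletion list. WT had it in the top 10.9%, with a width of 3170 bp and a fold enrichment of 27, and the deletion list in the top 16.2%, with a fold enrichment of 17.3. Of the replicates, the first placed it in the top 22.2% and the second in the top 82%. A peak in an intron 33.83 to 35.88 kb after the TSS in WT ranked in the top 16.7% there and the top 22.1% in the deletion list. That intron peak was also found in replicate 2 (top 64.3%) and for H3K4me2, and was absent from replicate 1 and from fibroblasts.

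The sequences at the summits of these WT peaks are shown because these sites, unlike the Itga11 promoter, had peaks in chondrocyte lists and none in fibroblasts. Both runs are mm9, + strand, at chr9:62494348-62494548 and chr9:62560491-62560691, with capitals again at CG dinucleotides.
Itga11 upstream: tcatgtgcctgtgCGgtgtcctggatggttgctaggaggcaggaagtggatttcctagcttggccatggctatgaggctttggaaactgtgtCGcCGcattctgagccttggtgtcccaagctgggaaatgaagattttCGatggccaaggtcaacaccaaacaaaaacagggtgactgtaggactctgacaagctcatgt
Itga11 intron: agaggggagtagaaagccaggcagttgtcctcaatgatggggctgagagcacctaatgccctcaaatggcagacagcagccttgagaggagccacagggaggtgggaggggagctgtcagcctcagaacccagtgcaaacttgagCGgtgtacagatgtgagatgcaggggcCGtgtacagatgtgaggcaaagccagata
Neither window held ACAAAG on either strand, which 14.6% of the windows of the same length at WT peak summits did.

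Fibroblasts in turn had peaks of Itga11 that no chondrocyte H3K27ac list shared, at 54.88 kb in an intron (top 86.8%) and at 139.27 to 141.41 kb, beyond the 3′ end (top 36.2%). Both lay under H3K4me2 peaks of chondrocytes. At 23 kb upstream of the gene, fibroblasts and WT shared a peak that was absent from both replicates and from the deletion list. WT held 18 peaks in the Itga11 region, against 4 in replicate 1, 5 in replicate 2, 11 in the deletion list and 6 in fibroblasts.

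Among the fibronectin receptors, Itga5 (ENSMUSG00000000555.6, mm9 chr15:103174720-103197194, − strand), which pairs with Itgb1 to form the main fibronectin receptor, was marked at its promoter in all 6 lists. The replicates placed its H3K27ac peak in the top 16.2% and 13.8%, WT in the top 10.8% and the deletion list in the top 11.2%. The fibroblast peak reached the top 3.12%, a higher rank than any chondrocyte H3K27ac list gave it. The H3K4me2 peak stood in the top 42.7%, below its H3K27ac ranks, whereas at Itga10 and Itga1 H3K4me2 ranked above H3K27ac.

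A peak in the body about 8 kb after the start of Itga5 and a pair of sites 60 to 63 kb after it were found in all 6 lists. A site at 43 kb was in replicate 2, WT, the deletion list and fibroblasts (top 28.3%) and not in replicate 1. A site at 47.72 to 49.47 kb in replicate 1 was in all 4 chondrocyte H3K27ac lists and neither in fibroblasts nor under H3K4me2. This flanking site was the one place near Itga5 where all 4 had a mark that fibroblasts lacked.

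Itgav (ENSMUSG00000027087.5, mm9 chr2:83564554-83647073, + strand), the alpha subunit of the vitronectin receptors, was marked in all 6 lists once the starts of both annotations were used. WT placed its peak in the top 3.08%, the deletion list in the top 4.49%, fibroblasts in the top 11.6% and replicate 1 in the top 14.8%. In replicate 2 the peak, in the top 6.97%, lay 1.10 to 3.32 kb after the RefSeq 5′ end, at the start used in mm9, and by the 1 kb rule it was not counted. A body peak at 34.46 to 35.80 kb in WT was also in the deletion list and fibroblasts and in neither replicate.

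Itgb3 (ENSMUSG00000020689.3, mm9 chr11:104469370-104531790, + strand), the beta subunit of a vitronectin receptor of platelets and osteoclasts, had no H3K27ac promoter peak in any list. H3K4me2 marked its promoter with 1584 bp in the top 31.5%. An intron peak at 16.50 to 17.99 kb in WT (top 38.6%) was in the deletion list (top 41.6%) and fibroblasts (top 48.1%) and in neither replicate. Replicate 2 had 0 peaks in the whole Itgb3 region, and replicate 1 had a lone peak at 3.77 kb that no other list shared.

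Itgb5 (ENSMUSG00000022817.8, mm9 chr16:33829751-33949239, + strand), a beta partner of the Itgav product, was marked at its promoter in all 5 H3K27ac lists at nearly the same rank. WT gave the peak a rank in the top 9.68%, the replicates 11.1% and 12.2%, the deletion list 12.1% and fibroblasts 12%. It was the only one of the 10 promoters marked by H3K27ac in both replicates and WT without an H3K4me2 peak within 1 kb. Starts of shorter transcripts at 62.3 and 92.8 kb after the 5′ end were marked in all 6 lists.

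Itgb5 also had the most peaks of the 10 genes in WT, with 24 in its region. Replicate 1 had 10, replicate 2 had 11, the deletion list 13 and fibroblasts 7. These counts, too, were taken without merging neighbouring peaks. Peaks were called distal when no protein-coding gene had its mm9 5′ end within 1 kb. Those at the Itgb5 starts at 62.3 and 92.8 kb therefore count as distal. Of the 5 distal fibroblast peaks of Itgb5 all overlapped a WT peak, where 45.1% of distal fibroblast peaks in the list did not. Of its 22 distal WT peaks, 14 had no fibroblast partner, against 74.6% of distal WT peaks in the list. A peak at 2.55 to 4.98 kb was in replicate 2, WT and the deletion list and not in fibroblasts or replicate 1.

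Itga6 (ENSMUSG00000027111.8, mm9 chr2:71583673-71696473, + strand), an alpha subunit for laminins, depended on which start was read. The 5′ end of the gene in mm9 had no chondrocyte peak within 1 kb, and a fibroblast peak of 286 bp in the top 75.7% lay just upstream of it. At a group of 4 other annotated starts, 41.3 kb further on and close to the RefSeq 5′ end, all 5 chondrocyte lists had a peak and fibroblasts had none. The H3K4me2 peak there stood in the top 13.9%, and the H3K27ac peaks of the replicates in the top 47.2% and 31.4%, that of WT in the top 42.4% and that of the deletion list in the top 84.4%. Read at that start, Itga6 had the pattern of Itga10. This reading was chosen after the values were seen.

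**Figure D2:**
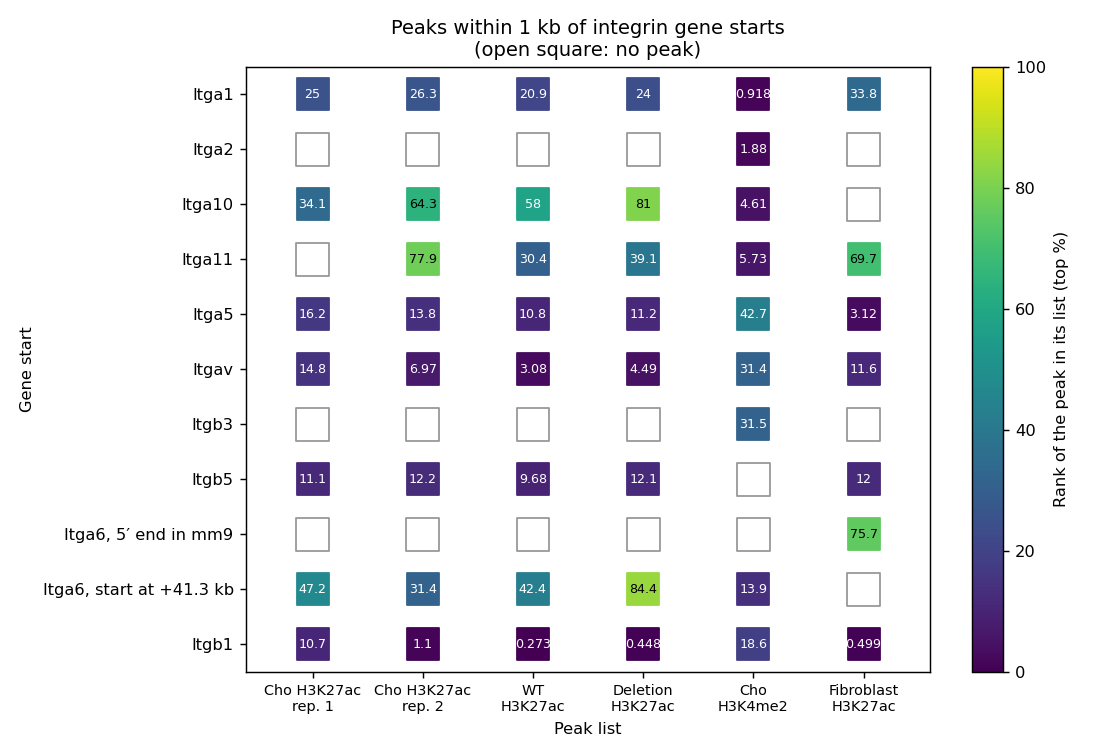
Peaks within 1 kb of each integrin gene start (rows) in each list (columns), with the rank of the best peak in its list in percent as number and colour, and open squares where there was no peak; Itga6 is shown at both starts and replicate 2 at the start that matches mm9. Itga10 and the Itga6 start at 41.3 kb are filled in all 5 chondrocyte lists and open in fibroblasts.

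Itgb1 (ENSMUSG00000025809.8, mm9 chr8:131209554-131257100, + strand) had the highest-ranked promoter of the 10 genes in each H3K27ac list. WT, the deletion list and fibroblasts all placed its promoter peak in the top 1%, at 0.273%, 0.448% and 0.499%, and the replicates placed it at 10.7% and 1.10%. A peak 31 kb upstream of the gene was in all 6 lists, in the top 13.1% in replicate 1 and 13.9% in fibroblasts. The gene of the subunit common to the collagen receptors and the Itga5 receptor was thus marked in both cell types.

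Counted by list with the rule as set, 6 of 10 integrin promoters were marked in replicate 1 (44.2% of all promoters) and 7 of 10 in replicate 2 (43.0%), a mean of 6.5 ± 0.707 (SD, n = 2). H3K4me2 marked 8 of 10 (66.1%). Fibroblasts, WT and the deletion list marked 7 of 10 each, against 47.5%, 50.1% and 47.2% of all promoters. Itga1, Itga5 and Itgb1 were marked in all 6 lists, where 35.9% of all promoters were. With 10 genes these counts do not set integrins apart from other genes.

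Gene body coverage, the share of the body under peaks, differed between Itga10 and Itga5 in the fibroblast list. Of the 18936 bp of Itga10, the replicates covered 12.5% and 5.04%, WT 15%, the deletion list 10.5% and fibroblasts 0%. Of Itga5, with 22475 bp, the same chondrocyte lists covered 14.2%, 8.59%, 14.9% and 10.5%, and fibroblasts covered 13.4%. The fibroblast value of Itga5 lay within the range of its chondrocyte lists, and that of Itga10 lay below all of its own.

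In replicate 1 the other 8 members were covered less than Itga10 and Itga5, at 0.425% to 8.88%. Itga10 and Itga5 have the shortest bodies of the 10, in which a peak of a given width covers a larger share. In bases, replicate 1 covered 10612 bp of Itgb5, against 2374 bp of Itga10 and 3190 bp of Itga5. Itgb5 had 8.88% and 5.01% in the replicates and 9.08% in fibroblasts, and Itgb1 had 3.33% and 2.28% against 3.47%. Itgav had 2.56% and 2.92% against 4.15%, and Itgb3 had 0.931% and 0% against 3.40%, so both were covered more in fibroblasts than in either replicate. WT coverage of Itgav was 8.12%, above the fibroblast value, and that of Itgb3 was 2.38%, below it. Itga1 had 2.38% and 2.11% in the replicates and 1.92% in fibroblasts, and Itga11 had 0.425% and 1.09% against 1.38%. Itga2 had 1.35% and 0% against 0.477%, and Itga6 had 0.698% and 1.14% against 0.376%. The fibroblast value lay inside the range of the 4 chondrocyte H3K27ac lists for 7 of the 10 genes, below it for Itga10 and Itga1 and above it for Itgb3.

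**Figure D3:**
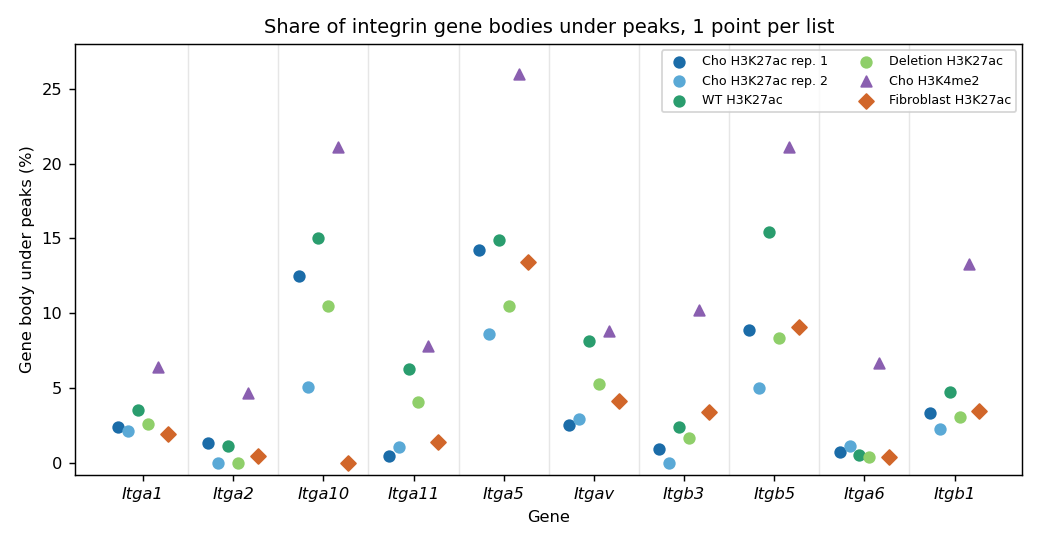
Share of each gene body under peaks in percent (vertical axis) for the 10 genes (horizontal axis), 1 point per list. The fibroblast diamond of Itga10 sits at 0, that of Itga5 at 13.4% among its chondrocyte points.

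Over the 4 collagen-binding genes the median covered share was 1.86% in replicate 1 and 1.60% in replicate 2 (mean 1.73 ± 0.186, SD, n = 2), and 0.929% in fibroblasts. Over the 4 fibronectin and vitronectin receptor genes it was 5.72% and 3.97% (mean 4.84 ± 1.24, SD, n = 2), and 6.62% in fibroblasts. The single genes of these groups overlapped, from 0.425% to 12.5% against 0.931% to 14.2% in replicate 1 and from 1.13% to 15% against 2.38% to 15.4% in WT, and the difference between the groups was not tested. Over all protein-coding genes the median was 0% in both replicates and 0.401% in fibroblasts, and over genes of at least 50 kb it was 0.910%, 0.446% and 0.709%. All 10 bodies held a peak in replicate 1, where 49.5% of all bodies and 68.0% of those of at least 50 kb did, and the bodies of Itga2 and Itgb3 held none in replicate 2 (48.2% of all bodies held one).

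Compared by position, 23 of the 45 replicate 1 peaks of the integrin regions had no fibroblast partner, that is 51.1% (Clopper-Pearson 95% interval 35.8 to 66.3) against 48.3% of the whole list. Such intervals take each peak as independent and hold counting error alone. For replicate 2, on the other build, peaks were matched by distance from the start within 1 kb instead of by overlap, and 25% of its 40 peaks had no fibroblast partner. That share has no whole-list value beside it and is not on the same measure as the 51.1%. Distal peaks, defined as for Itgb5, include those at other annotated starts of a gene. Of the distal replicate 1 peaks, 6 of 6 of the collagen-binding genes had no fibroblast partner (54.1 to 100%). For the fibronectin and vitronectin receptor genes it was 9 of 16 (56.2%, 29.9 to 80.2), against 70.7% of distal peaks in the list.

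The WT list had more peaks than the fibroblast list and came in another score format. Peak calling and cell type therefore cannot be told apart in this comparison. WT gave 22 of 24 distal peaks of the collagen-binding genes without a fibroblast partner (91.7%, 73.0 to 99.0). For the fibronectin and vitronectin receptor genes it gave 24 of 40 (60%, 43.3 to 75.1), against 74.6% of all distal WT peaks. Itga11 alone supplied 16 of those 24 peaks and Itgb5 22 of those 40, many of them side by side, so the peaks are not independent. Both intervals reach the share of the whole list, and the difference between the groups was not tested. In the reverse direction, 20 of 43 fibroblast peaks of integrin regions had no replicate 1 partner (46.5%, 31.2 to 62.3, list 37.6%), but 9 of 43 had no WT partner (20.9%, 10 to 36, list 26.2%). Of the distal fibroblast peaks, 4 of 6 of the collagen-binding genes, at Itga2 and Itga11, and 2 of 17 of the fibronectin and vitronectin receptor genes lacked a WT partner (list 45.1%), the latter both at Itgb3.

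Most H3K27ac peaks of integrin regions in replicate 1 lay under H3K4me2, at 40 of 45 (88.9%, 75.9 to 96.3), against 90.2% of the list. All 6 distal peaks of the collagen-binding genes did, and 86.6% of distal peaks in the list. The promoter of Itgb5 and the 47.72 kb site of Itga5 were among the 5 without it.

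**Figure D4:**
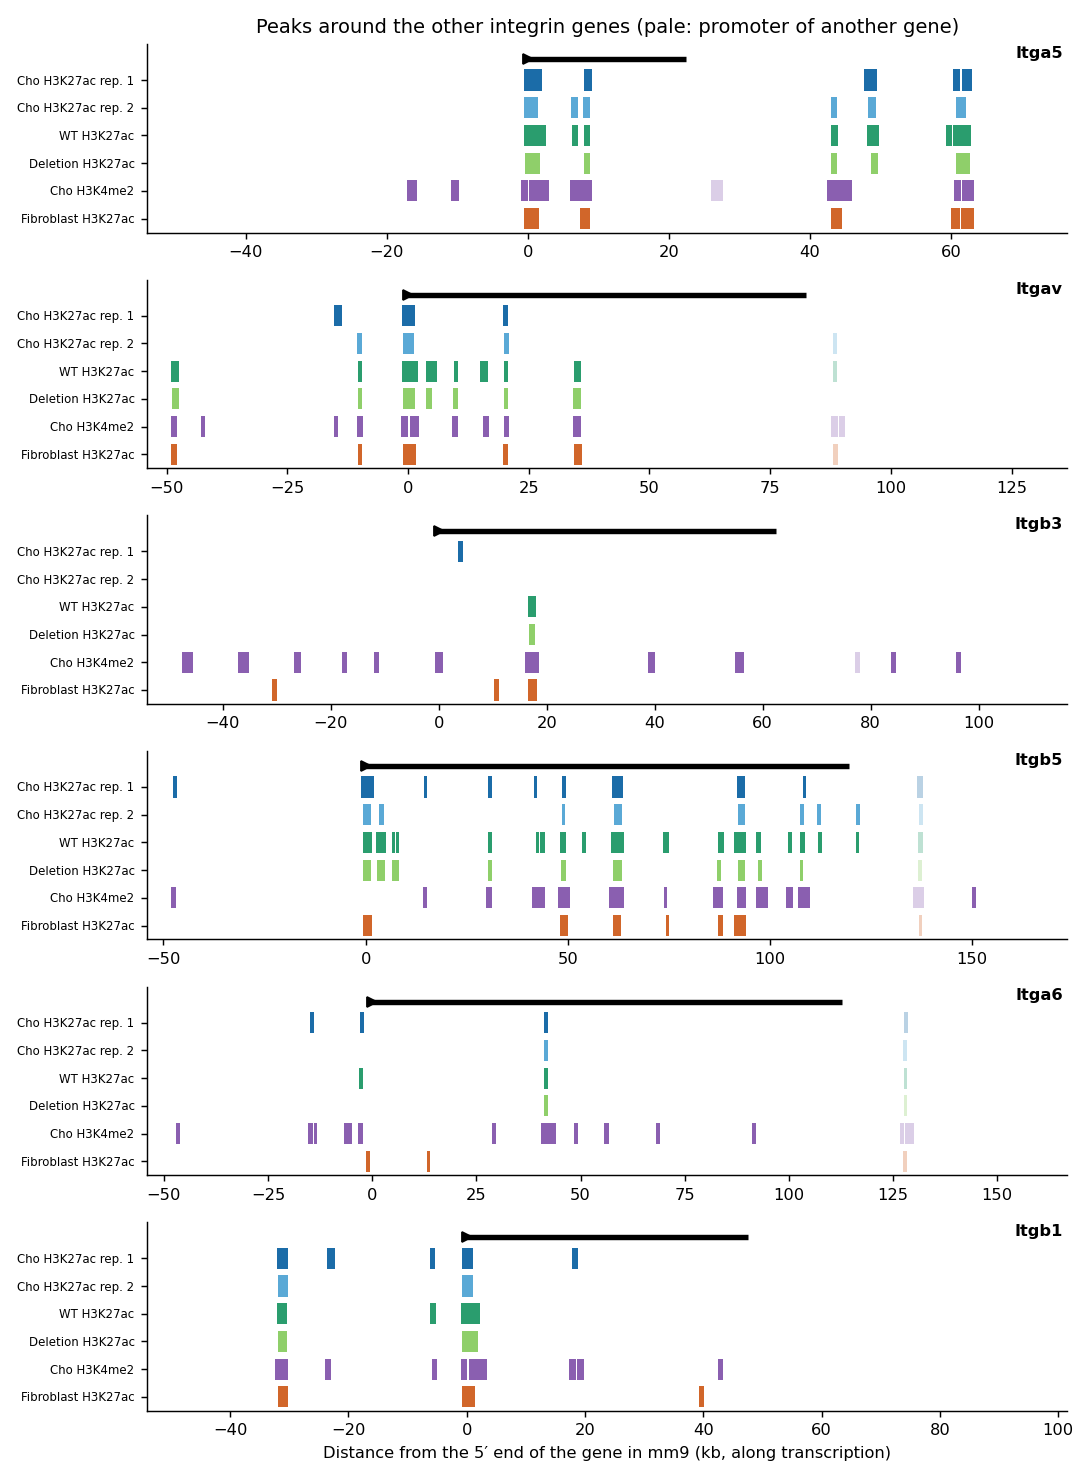
Peaks of Itga5, Itgav, Itgb3, Itgb5, Itga6 and Itgb1 drawn as for the collagen-binding genes, by distance from the 5′ end in mm9 (kb); replicate 2 of Itga6 and Itgav is shifted by the difference in gene length between builds. The fibroblast row is filled at the promoters of Itga5, Itgav, Itgb5 and Itgb1 and open at the Itga6 start at 41.3 kb.

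All 7 integrin promoters marked in WT were also marked in the deletion list, where 5.8% of all promoters marked in WT had no peak. Fold enrichment at these promoters was lower in the deletion list at each of the 7, with a median ratio of 0.742. The same ratio over all 9508 promoters marked in both lists was 0.692 (quartiles 0.620 and 0.765), and 97.1% of them were lower. The integrin promoters were thus lower as most promoters were, while their ratios, from 0.705 at Itgav to 0.799 at Itgb5, lay above that median. With 1 library of each genotype this difference was not tested. Itgb1 had 52.5 in WT and 40.4 in the deletion list, Itgav 39.9 and 28.2, Itga5 24.6 and 18.3, Itgb5 23.7 and 19.0, Itga1 17.3 and 13.1, Itga11 11.0 and 8.12, and Itga10 6.33 and 4.69.

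Of all 87 WT peaks of the integrin regions, 38 had no peak in the deletion list (43.7%, 33.1 to 54.7), against 37.2% of the whole list. They were mostly of low score. With WT peaks divided by score into 4 classes, 0 of 19 were lost from the highest class, 2 of 20 from the next, 15 of 26 from the one below and 21 of 22 from the lowest, and the whole list lost 0.0120%, 5.08%, 58.3% and 89.5% of the same classes. The 2 losses from the second class were the Fam171b promoter beyond Itgav (top 36.6%) and a site between 18 and 19 kb upstream of Itga11 (top 44.1%). No deletion peak of the integrin regions lacked a WT partner (0 of 58, interval 0 to 6.16%, list 1.12%).

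Of the distal WT peaks of the 10 genes, 36 of 68 (52.9%, 40.4 to 65.2) were missing from the deletion list, against 49.1% of distal WT peaks in the list. By gene, these were 10 of 16 for Itga11, 12 of 22 for Itgb5, 4 of 4 for Itga2, 4 of 8 for Itga5, 3 of 9 for Itgav, 1 of 3 for Itga1, 1 of 2 each for Itga6 and Itgb1, and 0 of 1 each for Itga10 and Itgb3. The site 31 kb upstream of Itga11, its 34 kb intron site and the 3′ end of Itga10 were kept. Each genotype had 1 library, so this comparison has no replicate check, and genotype and library cannot be told apart.

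**Figure D5:**
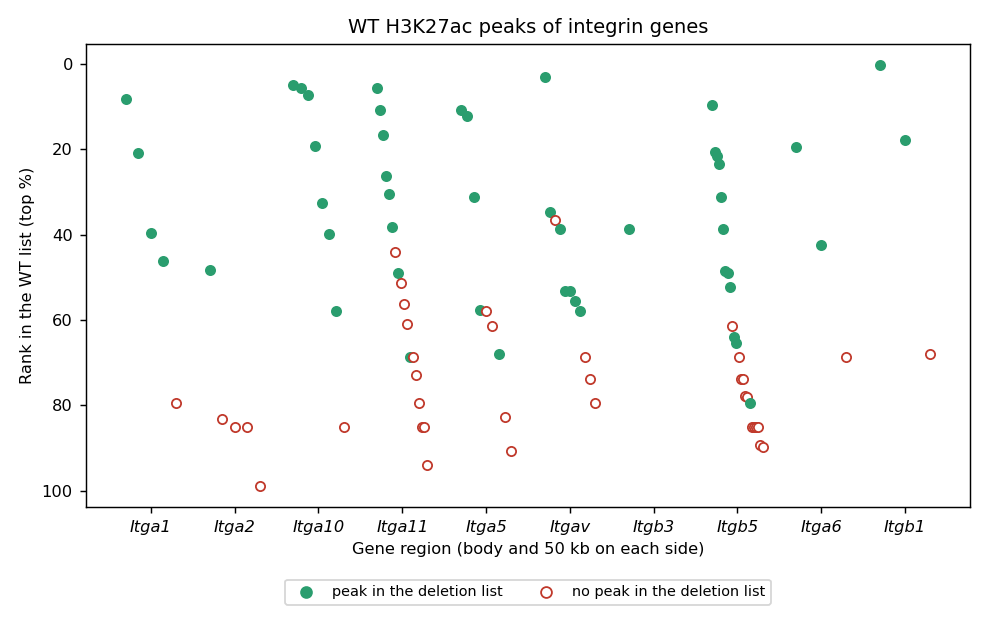
Rank of each WT peak in its list (vertical axis, top percent, strongest at the top) by gene region (horizontal axis), filled where the deletion list had an overlapping peak and open where it had none. Open points lie mostly in the lower ranks, the highest at the top 36.6%, and in some genes, such as Itgav, filled points lie below an open one.

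The wider integrin pathway was read from lists of other genes. Of 16 other integrin subunits, 3 were marked at the promoter in replicate 1 (44.2% of all promoters), 2 in replicate 2 (43.0%), 2 in fibroblasts (47.5%) and 9 by H3K4me2 (66.1%). Itgb8, a beta partner of the Itgav product, was marked in both replicates and not in fibroblasts (1.68% of all promoters). Itga4, an alpha subunit for fibronectin and VCAM1, was marked in fibroblasts and in neither replicate (3.83% of all promoters). Of 27 genes of the adhesion complex, which links integrins to actin, 17 were marked in all 6 lists (35.9% of all promoters). Tln1 and Ilk were among these. Parvb was marked in fibroblasts and in neither replicate (3.83% of all promoters).

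Of 21 genes for ligands other than collagens, 8 were marked in replicate 1 (44.2% of all promoters), 11 in replicate 2 (43.0%) and 10 in fibroblasts (47.5%). Fn1, the gene of fibronectin, was marked in all 6 lists. Edil3, a ligand of the Itgav receptors, was marked in both replicates and not in fibroblasts (1.68% of all promoters). Lama2, a laminin chain, was marked in fibroblasts and in neither replicate (3.83% of all promoters). Vtn, the gene of vitronectin, was marked by H3K4me2 alone.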

How the data were processed

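Peaks were used as the authors deposited them, called per library without pooling. Per the labels and methods, fastp trimmed the reads, Bowtie2 2.4.4 placed them on mm9, and MACS2 2.2.4 called peaks with input as control. Replicate 1, H3K4me2 and fibroblast lists hold the authors' score alone, in the form of earlier MACS releases. Replicate 2, WT and deletion lists also hold the deposited fold enrichment (a ratio to local background), −log10 p and −log10 q, and their score is 10 times the latter. Scores were used for ranks within a list. The lists hold no read numbers, so depth is unknown.

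Replicate 2 marked 43.0% of promoters with GRCm38 positions and 6.25% with mm9 positions, and the other lists 44.2 to 66.1% with mm9. Genes came from GENCODE vM1 (mm9) and RefSeq (GRCm38), matched by symbol, and sequences from RefSeq and the mm9 genome. No coordinate was converted. Replicate 2 peaks were compared with mm9 peaks by distance from a shared anchor (the RefSeq promoter sequence found in mm9, or for Itga6 and Itgb3 the 3′ end), within 1 kb. Overlap needed at least 1 bp, on chromosomes 1 to 19 and X. All 10 members were named, and peaks were named where they lay at a start, ranked highest or lacked a partner in the other cell type. The genes most like Itga10 had its 12 promoter and body calls and the smallest summed difference in covered share. Members, lists and sites were chosen with earlier results of these data known. Functions were tested on simulated lists. Python 3.11.15 with pandas 2.3.3, numpy 2.4.6 and scipy 1.17.1 was used.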

Additional observations from a re-analysis of the deposited data

How the results depend on the processing

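Each count or share was recomputed under 140 alternatives in all, of which 117 stayed within the margin, 23 moved and 0 reversed. The margin was 1.5 times for counts and median body coverage, and for shares of peaks the 95% interval of the value under the settings used, which is wide. With the higher-scoring 50% of each list, 0 promoters were chondrocyte only, since the Itga10 peak of replicate 2 ranked lower, region peaks numbered 20 (mean of the replicates), 50 (H3K4me2), 21 (fibroblasts), 39 (WT) and 27 (deletion), and median body coverage was 5.56% (H3K4me2) and 2.18% (deletion). Under that setting, replicate 1 peaks without a fibroblast peak came to 33.3%, fibroblast peaks without a replicate 1 peak to 23.8% (12.5% for collagen-binding genes), WT peaks without a deletion peak to 30.8%, and replicate 1 peaks with H3K4me2 to 66.7%. With equal numbers of top-scoring peaks, H3K4me2 marked 5 promoters, WT losses were 25% and H3K4me2 partners 35.6%. With 50% reciprocal overlap, H3K4me2 partners were 44.4%. Replicate 2 by distance gave 25% without a fibroblast peak, and within the interval 26.7% for collagen-binding genes (46.7% in replicate 1 by overlap) and 23.8% for fibronectin and vitronectin receptor genes (45%). Also within it, the 46.7% came to 29.6% with flanks of 100 kb, 30% with the higher-scoring 50% and 71.4% in the body and 1 kb before the TSS. With WT in place of the replicates, 1 promoter was fibroblast only, and fibroblast peaks without a partner fell to 20.9% (9.09% for fibronectin and vitronectin receptor genes). Leaving out each replicate gave 1 to 2 fibroblast-only promoters, against 0. An alternative chosen after seeing the data, any annotated start in both builds, was among the 140. No paired analysis was possible because only 1 group had replicate numbers and no result came from a test. Peak lists without read depth cannot tell an absent mark from one below the caller's threshold.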
